A study of Mus musculus with 8 samples.

Results

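Mucins are heavily glycosylated proteins that line epithelial surfaces, and Muc1 and Muc4 are anchored in the cell membrane whereas Muc5ac and Muc6 form the mucus of the stomach. Trefoil factors are small disulfide-bonded peptides secreted together with mucins and known for their part in mucosal repair. In the pancreas, cells of preneoplastic lesions and of tumours of the classical subtype often express genes of stomach epithelium, and Agr2, Lyz1 and Ctse belong to the genes used to recognise this gastric-type programme.

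The gene group comprised 10 genes chosen by symbol, namely the mucins Muc1, Muc4, Muc5ac and Muc6, the trefoil factors Tff1, Tff2 and Tff3, and Agr2, Lyz1 and Ctse. Of these, 8 had a row among the 15047 genes measured, and Muc5ac and Muc6 were not analysed here. Pancreas RNA of 8 male mice was sequenced. The LFD group (3 mice) and the HFD group (3 mice) were C57BL/6 WT animals, and fat supplied 60% of HFD calories. The ob/ob group (2 mice) was C57BL/6J with the ob/ob genotype, which lacks leptin, on a standard diet. Genotype and diet thus both set it apart from the HFD group and from the LFD group. In all groups, ob/ob included, the diets began at 4 weeks of age and lasted 10 weeks. According to the methods of the study all 3 groups carried an orthotopic transplant of mT organoids, a neoplastic organoid culture grown from mouse pancreas, while the labels name only pancreas. RNA from transplanted epithelium and from host pancreas could therefore enter the same libraries. Whether neighbouring tissue was included is not stated, and the share of each source was not measured. Values are rlog values, which are counts on a log2 scale corrected for library size, with differences of low genes drawn together. The depth of each library is unknown, and since rlog values are not per gene length, levels were compared between mice and not between genes.

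The acinar markers of the labelled tissue were present in every mouse. The mean of 26 acinar genes lay between 17.45 and 18.00 in LFD mice, at 17.81, 15.70 and 13.82 in HFD replicates 1, 2 and 3, and at 17.13 and 14.12 in ob/ob replicates 1 and 2. HFD replicate 3 stood apart from the other 7 mice by 4 of the 6 measured genes of the small intestine and Paneth cell list. Fabp1, a fatty acid binding protein of enterocytes, was at 13.31 in this mouse and at most at 6.82 in the others, and the lactase gene Lct was at 11.09 against at most 4.96. Mttp, which loads lipid into lipoproteins, reached 11.38 against at most 7.37, and Vil1, a protein of the brush border, reached 10.63 against at most 8.54. The other measured genes of the list were not highest in this mouse, with Mmp7 at 7.69 against up to 8.73 and Reg3g at 10.14 against up to 13.38 elsewhere. The mean of the 6 measured genes of the 17 in the small intestine and Paneth cell list was 10.71 in HFD replicate 3, 6.28 to 6.61 in LFD mice, 6.87 in each of the other HFD mice, and 7.89 and 7.00 in ob/ob mice. Values without this mouse are given for the members and most gene lists in HFD against LFD, and in ob/ob against HFD for Muc4, Ctse and the members that changed direction.

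Reads of some members can be shared with other genes. Lyz1 lies at chr10:117287797-117292868 on the minus strand (GRCm38, Gencode M21), 5475 bases from its paralog Lyz2 at chr10:117277331-117282321 on the same strand, and 422 of their 444 coding bases are identical (95%). Of the 31-base words in the Lyz1 transcript, 34.2% also occur in Lyz2. The first 120 coding bases of both genes, taken from the Gencode transcripts, are shown so that Lyz1, the Paneth cell lysozyme, can be compared with Lyz2, the macrophage lysozyme, and capitals mark the 11 positions that differ.
Lyz1: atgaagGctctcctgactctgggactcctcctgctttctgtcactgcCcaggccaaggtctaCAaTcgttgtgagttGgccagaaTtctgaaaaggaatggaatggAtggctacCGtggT
Lyz2: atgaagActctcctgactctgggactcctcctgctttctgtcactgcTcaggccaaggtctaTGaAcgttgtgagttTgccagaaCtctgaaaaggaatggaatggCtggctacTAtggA
How reads were divided between Lyz1 and Lyz2 was not tested. For Tff1, 23.5% of the words are shared with Gm15318, an antisense gene that overlaps it, and for Muc4 5.19% are shared with the overlapping gene Muc20. Ctse shared 0.316% of its words, and no word was shared for Muc1, Tff2, Tff3 and Agr2.

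The trefoil genes lie side by side on the minus strand of chromosome 17, Tff3 at chr17:31125306-31129646, Tff2 at chr17:31141049-31144282 and Tff1 at chr17:31161395-31165277. Gaps of 11402 and 17112 bases separate them. Their coding sequences are 54.3% identical for Tff1 and Tff3, 42.3% for Tff1 and Tff2 and 41.5% for Tff2 and Tff3. Muc1 lies at chr3:89229057-89233381 and Muc4 at chr16:32735886-32782391, both on the plus strand. Agr2 lies at chr12:35992907-36004087 and Ctse at chr1:131638306-131675505, also on the plus strand.

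The first question was how HFD and ob/ob mice differed from LFD mice in these genes. With limma, 0 of the 8 members and 0 of all genes (0%) passed an adjusted p-value of 0.05 in HFD against LFD. At an unadjusted p-value under 0.05, Muc4 and Ctse were higher in HFD (2 of 8 members, beside 11.5% of all genes higher) and 0 members were lower (8.35% of all genes). The groups did not overlap for 1 member that was higher, Muc4 (12.9% of all genes), and for 1 that was lower, Tff2 (12.3% of all genes). The mean was higher in HFD for 6 of 8 members, beside 52.4% of all genes, and the median log2 difference was 1.36 over the members and 0.03 over all genes.

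Between ob/ob and LFD mice, 0 members and 0 genes (0%) passed an adjusted p-value of 0.05 with limma. At an unadjusted p-value under 0.05, 0 members were higher (11.6% of all genes) and 1 was lower, Muc1 (7.18% of all genes). The groups did not overlap for 0 members that were higher (24.1% of all genes) and for 2 that were lower, Muc1 and Tff2 (21.8% of all genes). The mean was higher in ob/ob for 5 of 8 members, beside 53.1% of all genes. The median difference was 0.28 over the members and 0.04 over all genes. Both comparisons use the same 3 LFD mice, so the directions of the members in one are not independent of those in the other.

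**Figure D1:**
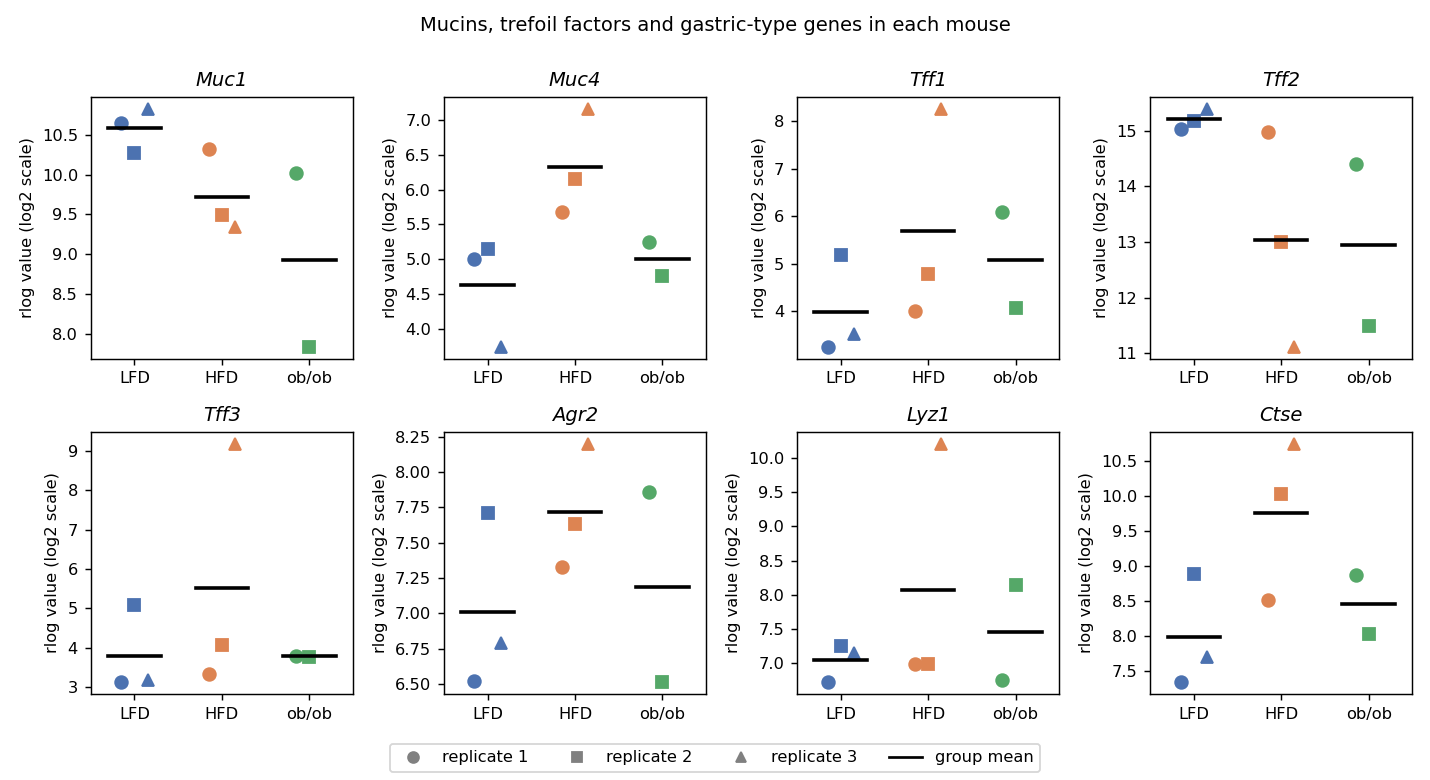
Deposited rlog values (log2 scale, vertical axis of its own for each gene) of the 8 measured members in LFD (3 mice), HFD (3 mice) and ob/ob (2 mice), with 1 point per mouse, a symbol for each replicate number and a line at the group mean. HFD replicate 3 (triangle) is the highest mouse for 6 of the 8 genes, and for Tff2 the 3 LFD mice lie above all obese mice.

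Among the membrane mucins, Muc1, whose protein also signals from the cell surface, was at 10.65, 10.27 and 10.83 in LFD replicates 1, 2 and 3, at 10.32, 9.50 and 9.34 in HFD mice, and at 10.02 and 7.84 in ob/ob mice. Only HFD replicate 1 reached into the LFD range, and both ob/ob mice lay below it. The difference was -0.86 for HFD against LFD (SE 0.51; limma, unadjusted p = 0.126, adjusted p = 0.358) and -1.65 for ob/ob against LFD (SE 0.57; limma, unadjusted p = 0.0182, adjusted p = 0.221). The 95% interval of the latter ran from -2.95 to -0.36. Muc1 thus had the order LFD, HFD, ob/ob by mean, and HFD and ob/ob did not differ beyond their spread, with a difference of -0.79 and an interval from -2.09 to 0.50. The HFD difference was -0.67 without HFD replicate 3. The ob/ob value differed between its 2 mice, with -0.56 without ob/ob replicate 2 and -2.75 without ob/ob replicate 1. Each of these values rests on the 1 remaining ob/ob mouse.

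Muc4, a large membrane mucin that is a partner of ErbB2, was at 5.01, 5.15 and 3.75 in LFD mice, at 5.67, 6.16 and 7.16 in HFD mice, and at 5.25 and 4.77 in ob/ob mice. All HFD mice were above all LFD and all ob/ob mice. The difference between HFD and LFD was 1.70 (SE 0.49, 95% interval from 0.58 to 2.81, 3.24-fold; limma, unadjusted p = 0.00749, adjusted p = 0.180). Without HFD replicate 3 it was 1.28 (unadjusted p = 0.0245 with limma), and the remaining HFD mice were still above every LFD mouse. Without HFD replicate 1 it was 2.02 (limma, adjusted p = 0.0305), and after each mouse was centred on 5 epithelial genes (Epcam, Krt8, Krt18, Krt19 and Cdh1) it was 0.85 (limma, unadjusted p = 0.136). Between ob/ob and LFD the difference was 0.37 (SE 0.55; limma, adjusted p = 0.711), with an interval from -0.87 to 1.62.

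In the RefSeq promoter table used here (GRCm38.p6), 4 of the 8 members were matched, Muc1, Muc4, Agr2 and Lyz1. The last 100 bases before the RefSeq start are shown for the membrane mucins, whose values differed from LFD in opposite directions in HFD, and for Agr2, with the letters TATAAA and CCACCC or their reverse complement in capitals.
Muc1, chr3:89228956-89229055, plus strand: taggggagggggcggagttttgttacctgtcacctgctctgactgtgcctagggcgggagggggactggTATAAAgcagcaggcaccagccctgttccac
Muc4, chr16:32735786-32735885, plus strand: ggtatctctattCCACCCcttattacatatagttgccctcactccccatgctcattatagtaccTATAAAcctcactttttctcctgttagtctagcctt
Agr2, chr12:35992825-35992924, plus strand: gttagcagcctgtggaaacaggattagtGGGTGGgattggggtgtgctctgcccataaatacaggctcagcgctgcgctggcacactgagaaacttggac
In the 250 bases before the start and on both strands, TATAAA occurred for Muc1 and Muc4 and in 12.4% of 32851 promoters, and CCACCC occurred for Muc4 and Agr2 and in 28.1%. AGATAA occurred in 9.99% of promoters, TGTTTAC in 3.17% and the kappa B motif in 0.14%, and each in 0 of the 4 members. These matches are descriptions of letters in a window.

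Among the trefoil factors, Tff2, which in the stomach is made by mucous neck cells, was at 15.04, 15.17 and 15.40 in LFD mice. It was at 14.98, 12.99 and 11.12 in HFD replicates 1, 2 and 3 and at 14.40 and 11.49 in ob/ob mice. Every LFD mouse was above every obese mouse, although HFD replicate 1 lay just under the lowest of them. The difference was -2.17 for HFD (SE 0.98, 95% interval from -4.41 to 0.07; limma, unadjusted p = 0.0563, adjusted p = 0.264) and -2.25 for ob/ob (SE 1.10, interval from -4.76 to 0.25; limma, unadjusted p = 0.0723, adjusted p = 0.293). LFD mice had an SD of 0.18, HFD mice of 1.93 and ob/ob mice of 2.06. The ob/ob mean differed from the HFD mean by -0.083 (interval from -2.59 to 2.42). Leaving out HFD replicate 1 gave -3.15 in HFD against LFD (limma, adjusted p = 0.0352), and leaving out HFD replicate 3 gave -1.21 (limma, adjusted p = 0.605).

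The values of Tff2 moved with those of the acinar genes in all mice. After the acinar mean of the same mouse was subtracted, Tff2 came to -2.41, -2.55 and -2.60 in LFD mice, to -2.83, -2.71 and -2.70 in HFD mice, and to -2.73 and -2.63 in ob/ob mice. These 8 values spanned far less than Tff2 itself, which ranged over 4.28. All 3 genes most like Tff2, by Pearson's r over 8 mice that share tissue make-up, had r = 0.999, namely the kallikrein Klk1, the FGF21 co-receptor Klb and the chymotrypsin-like protease Ctrl. Klk1 and Ctrl belong to the 26 acinar genes. All 26 acinar genes had a lower mean in HFD and in ob/ob than in LFD, with median differences of -1.99 and -2.10. At an unadjusted p-value under 0.05, 2 and 1 of them were lower (8.35% and 7.18% of all genes). The median in HFD was -1.03 without HFD replicate 3, with 0 of the 26 genes at that threshold (554 of all 15047 genes lower). With the acinar mean as a covariate the difference of Tff2 was -0.30 in HFD (limma, unadjusted p = 0.0441) and -0.24 in ob/ob (limma, unadjusted p = 0.130), and that of Muc1 was -0.045 in HFD and -0.77 in ob/ob (limma, unadjusted p = 0.0576). In such bulk samples, fewer cells of a type and less RNA per cell cannot be told apart.

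**Figure D2:**
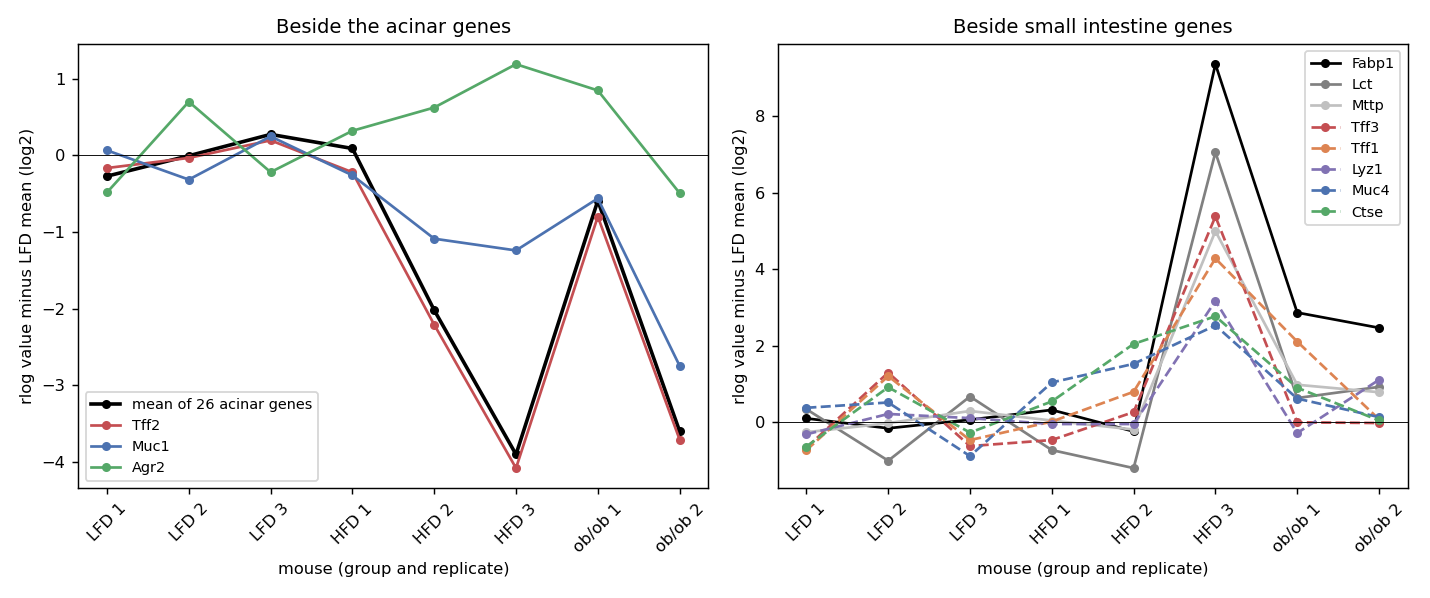
Values of each mouse minus the LFD mean (log2, vertical axis) along the 8 mice (horizontal axis). On the left, Tff2 overlies the mean of 26 acinar genes and Muc1 is low in the same mice. Agr2 is lowest in ob/ob replicate 2 but not low in HFD replicates 2 and 3. On the right, Tff3, Tff1, Lyz1, Muc4 and Ctse (dashed) and the intestinal genes Fabp1, Lct and Mttp (solid) are all at their highest in HFD replicate 3.

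Tff1, known as a peptide of gastric surface mucous cells, was at 3.26, 5.19 and 3.52 in LFD mice, at 4.00, 4.78 and 8.27 in HFD mice, and at 6.09 and 4.06 in ob/ob mice. Tff3, the trefoil peptide of intestinal goblet cells, was at 3.13, 5.09 and 3.17 in LFD mice, at 3.33, 4.06 and 9.17 in HFD mice, and at 3.80 and 3.78 in ob/ob mice. For both genes HFD replicate 3 exceeded every other mouse, by 2.17 for Tff1 and 4.08 for Tff3, and the remaining HFD mice lay within the LFD range. The difference between HFD and LFD was 1.69 for Tff1 (SE 1.09; limma, unadjusted p = 0.155, adjusted p = 0.393) and 1.72 for Tff3 (SE 1.35; limma, unadjusted p = 0.235, adjusted p = 0.478). Without HFD replicate 3 these became 0.40 and -0.10, so the direction for Tff3 came from 1 mouse. For ob/ob against LFD the differences were 1.09 for Tff1 (interval from -1.68 to 3.86) and -0.014 for Tff3 (interval from -3.45 to 3.42), the latter 0.21 once each mouse was centred on 5 epithelial genes.

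The genes most like Tff3 over the 8 mice were Ces2a, a carboxylesterase (r = 0.994), Prss30 (r = 0.992) and Tmem41a (r = 0.988). Ces2a was at 7.64 in HFD replicate 3 and at most at 3.62 in the others, so that these likenesses rest on the same mouse. Those most like Tff1 were Tspan33 (r = 0.985), Sema4g (r = 0.971) and Agpat2 (r = 0.957). Each was highest in HFD replicate 3. Tff1 and Tff3, neighbours in the genome, had r = 0.899 over 8 mice and 0.642 over the 7 without HFD replicate 3. Tff2 had negative values with both, -0.562 with Tff1 and -0.629 with Tff3, which came to -0.088 and -0.114 without that mouse.

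Agr2, a protein disulfide isomerase that folds mucins in the endoplasmic reticulum, was at 6.52, 7.71 and 6.79 in LFD mice, at 7.33, 7.63 and 8.20 in HFD mice, and at 7.86 and 6.51 in ob/ob mice. The groups overlapped. The difference was 0.71 in HFD (SE 0.43; limma, unadjusted p = 0.135, adjusted p = 0.370; -0.14 after centring on the 5 epithelial genes) and 0.18 in ob/ob (SE 0.48; limma, unadjusted p = 0.721, adjusted p = 0.854). Agr2 had the smallest range over the mice, 1.68, of the 8 members. Its values had r = 0.865 with Tff1 and 0.878 with Ctse over 8 mice, and 0.867 and 0.823 over the 7 without HFD replicate 3.

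Ctse encodes cathepsin E, an aspartic protease of gastric epithelium and of immune cells. It was at 7.34, 8.89 and 7.71 in LFD mice, at 8.52, 10.03 and 10.75 in HFD mice, and at 8.88 and 8.03 in ob/ob mice. HFD replicates 2 and 3 were above all other mice and HFD replicate 1 lay within the LFD range. The difference between HFD and LFD was 1.78 (SE 0.59, interval from 0.44 to 3.13, 3.44-fold; limma, unadjusted p = 0.0153, adjusted p = 0.198), and without HFD replicate 3 it was 1.29 (limma, unadjusted p = 0.0502). Leaving out HFD replicate 1 instead gave 2.40 (limma, adjusted p = 0.0186). It was 0.93 with the epithelial centring (limma, unadjusted p = 0.0786) and 1.31 with the mean of the acinar genes as covariate (limma, unadjusted p = 0.0592), and both ended the call at an unadjusted p-value of 0.05. The ob/ob mean differed from LFD by 0.47 (SE 0.66; limma, adjusted p = 0.698). Muc4 and Ctse varied together, with r = 0.874 over 8 mice and 0.749 without HFD replicate 3.

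Lyz1 was at 6.72, 7.25 and 7.15 in LFD mice, at 6.99, 6.99 and 10.21 in HFD mice, and at 6.76 and 8.15 in ob/ob mice. HFD replicate 3 was the highest by 2.06, and the other HFD mice were within the LFD range. The difference between HFD and LFD was 1.02 (SE 0.80; limma, unadjusted p = 0.237, adjusted p = 0.482) and without that mouse it was -0.050. Its paralog Lyz2 was ordered otherwise, at 13.20, 12.61 and 12.72 in LFD mice, at 13.47, 14.45 and 13.28 in HFD mice, and at 13.92 and 14.88 in ob/ob mice. For Lyz2 no obese mouse overlapped the LFD group, with differences of 0.89 in HFD (limma, adjusted p = 0.262) and 1.56 in ob/ob (limma, unadjusted p = 0.00765, adjusted p = 0.201). The 12 macrophage genes, which include Lyz2, had a higher mean than in LFD for 11 genes in HFD and for 12 in ob/ob. Their median differences were 1.00 (0.90 without HFD replicate 3) and 1.73. Among them were the complement genes C1qa and C1qb, Adgre1, a macrophage surface receptor, and Csf1r, the CSF1 receptor. At an unadjusted p-value under 0.05, 6 of the list were higher in HFD (11.5% of all genes) and 11 in ob/ob (11.6% of all genes). In ob/ob replicate 2, which had the highest Lyz2 value, Lyz1 was the second highest of the mice, and whether shared reads contribute to this was not tested.

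HFD replicate 3 was the highest mouse for 6 of the 8 members, and for 3 of them, Tff1, Tff3 and Lyz1, it exceeded the next mouse by over 2. Over all genes it was the highest for 16.3%, and by over 2 for 0.671% (101 genes). The part of intestinal RNA in these values was not tested, and without this mouse Tff3 and Lyz1 had a lower mean in HFD than in LFD. Muc4, Ctse, Agr2 and Tff1 kept a higher mean in HFD without it, at 1.28, 1.29, 0.47 and 0.40.

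**Figure D3:**
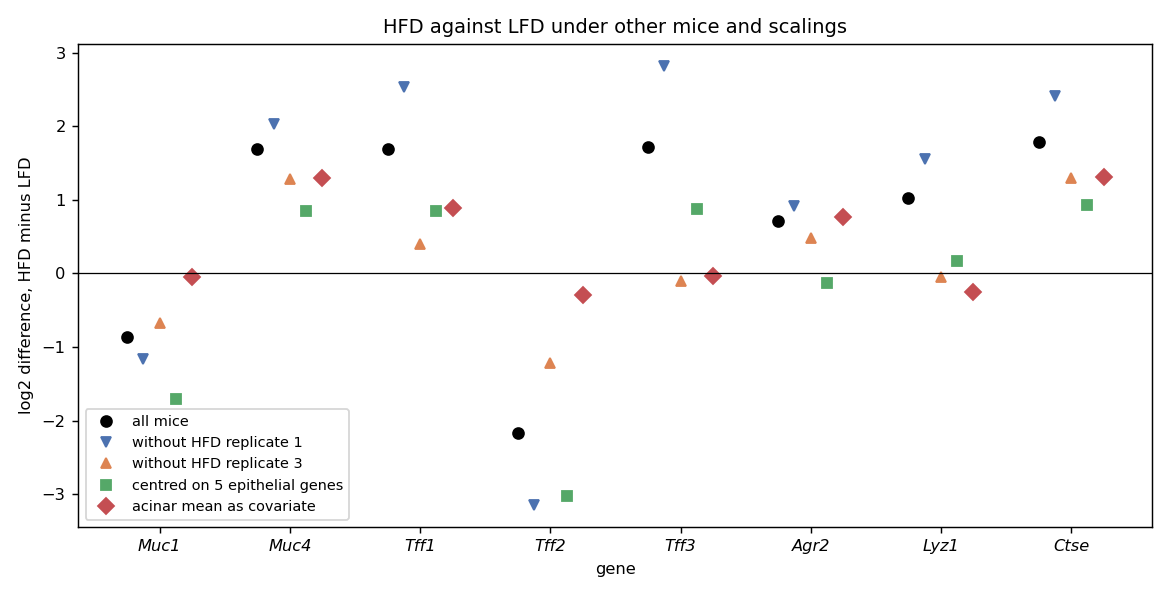
Log2 difference between HFD and LFD (vertical axis) of each member (horizontal axis) with all mice, without HFD replicate 1, without HFD replicate 3, after centring each mouse on 5 epithelial genes, and with the acinar mean as covariate. Tff3 and Lyz1 lie just below 0 without HFD replicate 3, Tff2 and Muc1 come close to 0 with the acinar covariate, and Agr2 falls below 0 with the epithelial centring.

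The last comparison set the 2 obese groups against each other. All 8 members had a lower mean in ob/ob than in HFD, beside 48.3% of all genes, and the median difference was -0.70 over the members and 0.01 over all genes. With limma, 0 members and 0 genes (0%) passed an adjusted p-value of 0.05. At an unadjusted p-value under 0.05, 0 members were higher in ob/ob (2.28% of all genes) and 1 was lower, Muc4 (1.63% of all genes). The groups did not overlap for 0 members that were higher (7.92% of all genes) and for 1 that was lower, Muc4 (5.42% of all genes). The difference of Muc4 was -1.32 (SE 0.55, interval from -2.56 to -0.08; limma, unadjusted p = 0.0396, adjusted p = 1.00) and came to -0.91 without HFD replicate 3 (limma, unadjusted p = 0.112) and to -0.25 with the epithelial centring (limma, unadjusted p = 0.693). For Ctse it was -1.31 (SE 0.66; limma, unadjusted p = 0.0796), and -0.82 without that mouse (limma, unadjusted p = 0.219). Without HFD replicate 3, Tff1, Tff3 and Lyz1 had a higher mean in ob/ob, at 0.69, 0.088 and 0.46. Without ob/ob replicate 2, Muc1, Tff1, Tff2 and Agr2 were higher in the remaining ob/ob mouse, at 0.30, 0.41, 1.37 and 0.14. Tff2 was also higher in ob/ob without HFD replicate 1, at 0.89, and Lyz1 without ob/ob replicate 1, at 0.084. The shared direction of all 8 members thus depended on single mice of both groups. It also depended on the scaling, since after centring on the 5 epithelial genes Muc1, Tff1, Tff2, Agr2 and Lyz1 had a higher mean in ob/ob.

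**Figure D4:**
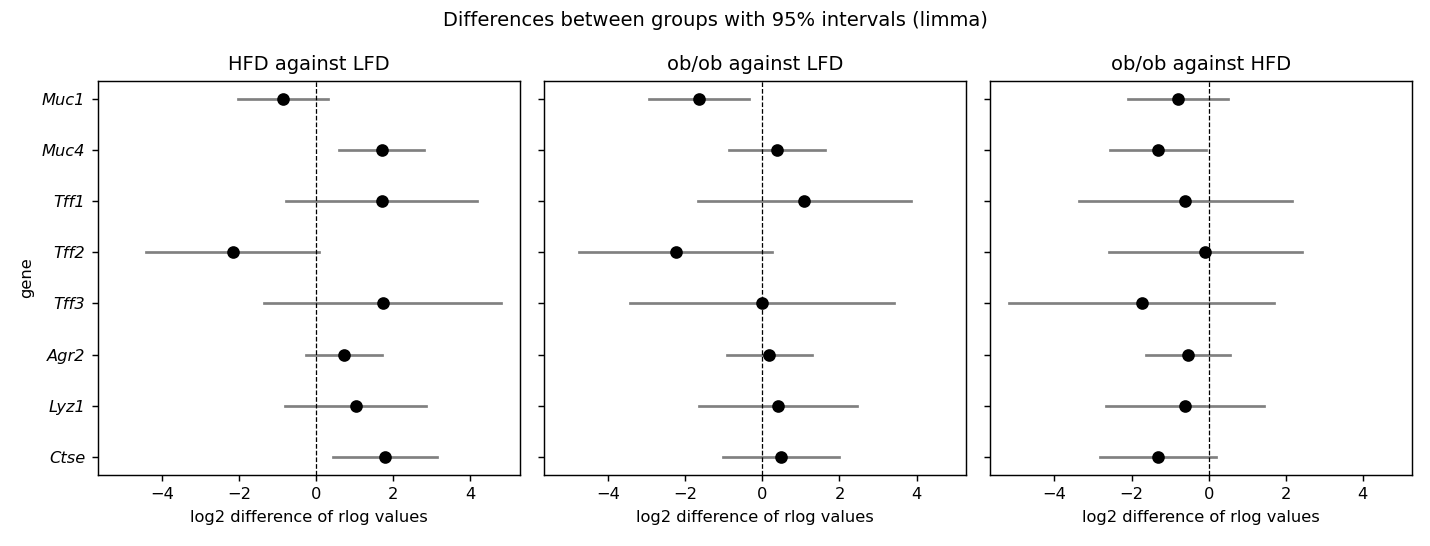
Log2 differences of the rlog values (horizontal axis) of the 8 members in HFD against LFD, ob/ob against LFD and ob/ob against HFD, with points for the limma estimate and lines for the 95% interval. The interval leaves out 0 for Muc4 and Ctse in HFD against LFD, for Muc1 in ob/ob against LFD and for Muc4 in ob/ob against HFD.

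Other genes of gastric-type and classical epithelium were measured for 19 of 30 in the list. In HFD against LFD 16 had a higher and 3 a lower mean, and the median difference was 1.50. At an unadjusted p-value under 0.05, 10 were higher and 1 lower (11.5% and 8.35% of all genes), with 0 at an adjusted one. Without HFD replicate 3, 15 were higher and 4 lower, and the median was 0.86. At an unadjusted p-value under 0.05, 6 were then higher and 0 lower, beside 1036 higher and 554 lower of all 15047 genes. Anxa10, an annexin of gastric epithelium, was at 2.90, 3.20 and 3.43 in LFD mice and at 3.99, 5.02 and 7.99 in HFD mice. Cdh17, the cadherin of liver and intestine, was at 7.63, 8.42 and 7.53 in LFD mice and at 8.36, 10.66 and 11.34 in HFD mice. Myo1a, a brush border myosin, and Clrn3 were at 10.50 and 7.02 in HFD replicate 3 and at most at 5.18 and 3.93 in the other mice. Against LFD, 13 of the 19 had a higher mean in ob/ob, with a median of 0.23. Of the 19, 0 were higher and 1 lower at an unadjusted p-value under 0.05 (11.6% and 7.18% of all genes). The general markers of ductal epithelium had a higher mean in HFD for 12 of 16 genes, with a median of 0.73. At an unadjusted p-value under 0.05, 5 were higher and 0 lower (11.5% and 8.35% of all genes). Without HFD replicate 3, 13 had a higher mean, 3 of them at that threshold (1036 of all 15047 genes), with a median of 0.43. In ob/ob 5 of 16 had a higher mean, with a median of -0.10. There 1 was higher and 3 were lower at that threshold (11.6% and 7.18% of all genes). Krt7 and Krt19, keratins of ducts, differed by 1.79 and 1.34 in HFD and Krt20 by 1.85 (0.71 without HFD replicate 3). In ob/ob, Krt7, Krt19 and Krt20 differed by 0.44, -0.0084 and 0.89. Spp1, which encodes osteopontin, differed by 0.99 in HFD and by 1.43 in ob/ob. It was highest in ob/ob replicate 2 and HFD replicate 2, at 14.06 and 14.05. Of all mice, ob/ob replicate 2 had the lowest mean of the ductal list, 8.39, and the highest of the macrophage list, 10.44. The cell source of Spp1 was not tested.

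Most listed genes of stomach glands had no row. Of the 11 listed genes of parietal, chief and endocrine cells 4 were measured, and their mean lay between 2.14 and 2.86 in LFD, between 2.56 and 3.62 in HFD, and at 3.57 and 2.47 in ob/ob. Atp4a, the catalytic chain of the gastric proton pump, was between 1.19 and 3.44 over all mice, Gif, gastric intrinsic factor, between 1.85 and 4.62, and the ghrelin gene Ghrl at most at 3.10. Slc26a9, an anion transporter, was at 2.50, 2.55 and 2.77 in LFD mice, at 4.33, 4.95 and 4.11 in HFD mice, and at 4.90 and 2.96 in ob/ob mice. It differed by 1.86 in HFD (limma, unadjusted p = 0.00400, adjusted p = 0.179) and by 1.32 in ob/ob (limma, unadjusted p = 0.0362, adjusted p = 0.248). It was the only 1 of the 4 with an unadjusted p-value under 0.05 in either (11.5% and 11.6% of all genes higher).

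Other mucins, with Ovgp1, Emcn, Mcam, Cd164 and Podxl listed beside them, were measured for 9 of 17 genes. Their mean was higher in HFD for 7 and lower for 2, with a median difference of 0.48. Of these, 0 had an unadjusted p-value under 0.05 (11.5% of all genes higher, 8.35% lower). In ob/ob 5 were higher and 4 lower with a median of 0.01, and 1 was higher and 0 lower at that threshold (11.6% and 7.18% of all genes). In HFD, 6 were higher and 3 lower without HFD replicate 3, with a median of 0.048. Muc13, a membrane mucin of the intestine, was at 11.70 in HFD replicate 3 and between 4.73 and 6.63 in all other mice. Muc3, an intestinal membrane mucin named here after its values were seen, was at 7.63 in that mouse and at most at 3.44 elsewhere. Muc1 was at 9.34 in the same mouse, below every LFD mouse. Mcam, an adhesion molecule of vessels, differed by 0.77 in HFD and 1.02 in ob/ob, and Mucl1, a small mucin-like protein, by 0.97 (1.65 without HFD replicate 3) and 1.64.

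Of 28 genes that glycosylate or fold mucins 25 were measured, with 15 higher and 10 lower in HFD by mean and a median difference of 0.21. At an unadjusted p-value under 0.05, 4 were higher and 3 lower (11.5% and 8.35% of all genes). Without HFD replicate 3, 13 were higher and 12 lower in HFD, with a median of 0.053. Then 1 was higher and 3 were lower at that threshold, beside 1036 and 554 of all 15047 genes. Gcnt3, a transferase that branches mucin glycans, differed by 1.70 in HFD and was at 8.39 and 8.44 in HFD replicates 2 and 3 against at most 6.79 in the LFD mice. Clca1, a protein of goblet cell mucus, was highest in HFD replicate 3, at 9.11, and Fut1, a fucosyltransferase, was lowest there, at 4.45. Bhlha15, the regulator of secretory cells known as Mist1, differed by -1.93 in HFD (-1.03 without HFD replicate 3) and -2.24 in ob/ob. In ob/ob 11 were higher and 14 lower, with a median of -0.05.

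Transcription factors of stomach and foregut were measured for 18 of 21 genes. In HFD 9 had a higher and 9 a lower mean, and 7 and 11 without HFD replicate 3. With all mice, 2 were higher and 0 lower at an unadjusted p-value under 0.05 (11.5% and 8.35% of all genes). In ob/ob 5 were higher and 13 lower, with a median difference of -0.38. There 0 were higher and 5 lower at that threshold (11.6% and 7.18% of all genes). Foxa3, Gata4 and Spdef differed by -1.70, -1.64 and -1.60 in ob/ob, where replicate 2 held the lowest values. They were also lower in HFD, by -1.04, -0.94 and -1.32. Gata5 differed by 1.79 in HFD (1.00 without HFD replicate 3), where replicate 3 was highest at 6.87.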

How the data were processed

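Per the labels, total RNA of the pancreas of 8 mice was sequenced. The authors quantified transcripts with Salmon 0.11.3 (Gencode M18, GRCm38.p6), aggregated them to genes (tximport) and applied the rlog transformation of DESeq2 1.22.2. The deposited values are on this log2 scale. The filter that left 15047 genes is not given in the sources used here, and without the depth of the libraries counting error could not be computed.

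Groups were compared in R 4.3.3 by limma 3.58.1, fitting 3 group means to all 8 mice, with a variance trend and Benjamini-Hochberg adjustment over all genes at 0.05. The step was tested on simulated data. The p-values measure the spread between mice. Genes and lists were chosen with earlier results of these data known. The text names all members, Lyz2, and the 3 genes most like each of the 3 members with the largest range. For each list except the acinar genes it names the 4 genes with the largest difference from LFD in HFD or ob/ob. Coordinates and transcripts are those of Gencode M21, on the same assembly. The alternatives were other scalings, filters, weights, covariates and subsets of mice.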

Additional observations from a re-analysis of the deposited data

How the results depend on the processing

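The members kept their direction in most alternatives, with 5, 10 and 18 reversals in HFD against LFD, ob/ob against LFD and ob/ob against HFD, beside 120, 123 and 116 values that kept direction and call and 9, 1 and 0 that passed the threshold. The filter on a mean rlog value of at least 5 left out Tff1 and Tff3.

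Genes with an adjusted p-value under 0.05 numbered 0 in each comparison. They numbered 1 in HFD against LFD and 38 in ob/ob against LFD with only the groups compared. Centring on the epithelial genes, which differed by 0.85, -0.22 and -1.07 and so shifted every gene, gave 1150 (15 higher, 1135 lower), 98 and 172, and HFD differences of -1.71 for Muc1 and -3.02 for Tff2, both past the threshold. Array weights, which gave HFD replicate 2 a weight of 9.36, made it 6656 in HFD against LFD and called Muc1, Muc4, Tff2 and Ctse. The acinar covariate gave 1 in each comparison with ob/ob. Leaving out a mouse gave 0 to 2812, 0 to 89 and 0 to 1 genes, the highest being without HFD replicate 1 for the first pair, when Muc4 (2.02), Tff2 and Ctse (2.40) passed the threshold in HFD. Muc1 (-2.75) passed it in ob/ob against LFD without ob/ob replicate 1, which left 61 genes called and 1 mouse in the group, taken to vary like the others.

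Genes with an unadjusted p-value under 0.05 numbered 2985, 2831 and 588. In HFD against LFD they came to 7936 with array weights, 1611 with the acinar covariate and 1480 to 5445 when a mouse was left out. In ob/ob against LFD they came to 1744 with the epithelial centring, 1512 with the covariate and 752 to 4075. In ob/ob against HFD they came to 353 with only the groups compared, 389 with the filter, 5092 with the epithelial centring, 980 with array weights, 1191 with the covariate and 369 to 1117. Of these genes 57.9%, 61.9% and 58.3% were higher, and 1.83%, 83.1% and 99.9% with the epithelial centring. Centring on the median or quantile normalization moved this share by under 10 points. Array weights made it 40.9% in ob/ob against HFD. Leaving out a mouse moved it by over 10 points to 72.2% without LFD replicate 2 and 80.7% without ob/ob replicate 2 in ob/ob against LFD, and to 36.5% without HFD replicate 1 and 73.4% without ob/ob replicate 2 in ob/ob against HFD. Members at that threshold numbered 2, 1 and 1. With the epithelial centring the 2 in HFD against LFD were Muc1 and Tff2 in place of Muc4 and Ctse, and with the acinar covariate Muc4 and Tff2. With only the groups compared they were 4 and 2 in HFD and ob/ob against LFD, with array weights 4, 2 and 2, with the epithelial centring 3 and 0 in the comparisons of ob/ob with LFD and HFD, with the acinar covariate 0 and 3 there, and 1 to 4, 0 to 2 and 0 to 2 when a mouse was left out.

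Reversals with the epithelial centring were Agr2 in HFD against LFD (-0.14), Tff3 in ob/ob against LFD (0.21), and Muc1, Tff1, Tff2, Agr2 and Lyz1 in ob/ob against HFD (0.28, 0.47, 0.99, 0.54 and 0.46). With the acinar covariate they were Tff3 and Lyz1 in HFD against LFD (-0.037 and -0.25), Muc4, Lyz1 and Ctse in ob/ob against LFD (-0.052, -0.96 and -0.040), and Tff2 in ob/ob against HFD (0.062). With array weights they were Tff1, Tff2 and Lyz1 in ob/ob against HFD (0.14, 4.6e-05 and 0.29). Leaving out a mouse reversed Tff3 (range -0.10 to 2.82) and Lyz1 (-0.050 to 1.56) in HFD against LFD, both without HFD replicate 3. In ob/ob against LFD the ranges were -0.49 to 0.85 for Agr2 (reversed without LFD replicate 1 or ob/ob replicate 1), -0.35 to 0.63 for Tff3 (LFD replicate 2), -0.070 to 0.63 for Muc4 (LFD replicate 3) and -0.29 to 1.11 for Lyz1 (ob/ob replicate 2). In ob/ob against HFD they were -1.88 to 0.30 for Muc1 and -1.20 to 0.14 for Agr2 (ob/ob replicate 2), -1.62 to 0.69 for Tff1 (HFD replicate 3 or ob/ob replicate 2), -1.54 to 1.37 for Tff2 (HFD replicate 1 or ob/ob replicate 2), -2.83 to 0.088 for Tff3 (HFD replicate 3) and -1.31 to 0.46 for Lyz1 (HFD replicate 3 or ob/ob replicate 1). The causes were not tested. The lists of genes were also counted without HFD replicate 3, which was chosen after seeing the data.

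Replicate numbers name different animals. Same-numbered LFD and HFD mice had correlations of deviations of -0.06, 0.113 and -0.281. Those of LFD and ob/ob had -0.097 and 0.128, and those of HFD and ob/ob had 0.592 and 0.303. The differently numbered HFD replicate 3 and ob/ob replicate 2 had 0.44. Same-numbered mice were not taken as pairs. A fit with the numbers as a replicate block gave 0 genes at an adjusted p-value under 0.05 in each comparison (3255, 3243 and 467 unadjusted), members at an unadjusted p-value under 0.05 numbered 3, 2 and 0, and Tff3 in ob/ob against LFD came to 0.74. Muc4 in ob/ob against HFD had an unadjusted p of 0.0751 with this block (limma).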

Other observations

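Muc16, the mucin known as CA125 and made by mesothelial cells among others, was at 6.77, 3.43 and 7.02 in LFD mice, at 5.09, 5.12 and 3.70 in HFD mice, and at 3.95 and 3.78 in ob/ob mice. LFD replicate 2 was the lowest of all mice for this gene while the other LFD mice were the highest. The mesothelial genes Upk3b, Lrrn4 and Upk1b were also lower in LFD replicate 2 (5.92, 4.84 and 4.22) than in LFD replicate 1 (7.00, 6.05 and 5.18). Msln, which encodes mesothelin, was ordered otherwise, with 8.81 in LFD replicate 2 and 8.17 in LFD replicate 1. Of the 6 measured mesothelial genes, 2 had a higher and 4 a lower mean in both HFD and ob/ob than in LFD, with median differences of -0.41 and -0.43.

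LFD replicate 2 held the highest LFD value for Muc4, Tff1, Tff3, Agr2, Lyz1 and Ctse, and without it the HFD differences of Agr2 and Ctse were 1.06 and 2.24 (limma, unadjusted p = 0.0424 and 0.00666).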
